A study of Mus musculus with 18 samples.

Results

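The liver sinusoid is lined by a specialised endothelium, and 10 genes that mark these cells or encode the growth signals they send to hepatocytes were followed in the livers of young and old mice. They are the endocytic receptor genes Stab1, Stab2, Lyve1, Clec4g and Fcgr2b, the general endothelial genes Pecam1 and Kdr, and the secreted Wnt pathway ligand genes Wnt2, Wnt9b and Rspo3. Each was taken by its symbol from the deposited expression table, and all 10 were found among its 18946 genes. The study sequenced ribosomal-RNA-depleted whole-liver RNA from male C57BL/6J mice, 8 Young and 10 Old, with 1 library per title. The labels give an age of 6.18 months for Young and 19.76 months for Old mice. Elsewhere in the labels the groups are called 6 and 20 months old, and Old is also given as 21 months. All 18 mice had been fasted overnight and then clamped, that is, infused with insulin while a glucose infusion kept blood glucose level, and the liver was taken when the clamp ended. No genotype, drug or diet separated the groups, so age was the compared condition, and every liver was insulin-stimulated.

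Sinusoidal endothelial cells lack a continuous basement membrane, have open pores (fenestrae) and clear waste molecules from portal blood by receptor-mediated uptake. Endothelial cells near the central vein also secrete Wnt2, Wnt9b and R-spondin 3, which act on neighbouring hepatocytes through Frizzled receptors, LRP coreceptors and LGR receptors, stabilise beta-catenin and maintain the pericentral gene programme. In whole-liver RNA, fewer endothelial cells and less RNA per endothelial cell cannot be told apart. Stab1, Lyve1 and Fcgr2b are also expressed by some macrophages, and Fcgr2b by B cells.

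Each library held 85790735 to 127487820 reads assigned to genes. Levels are given as scaled TPM, that is, a gene's share of all transcripts, corrected for gene length and set to a total of 1000000, after scaling for composition, with factors between 0.839 and 1.17. RNA was extracted with the AllPrep kit from 3 Young and 5 Old mice and with the RNeasy kit from 5 Young and 5 Old mice. Old replicate 14, an RNeasy library, stood apart from the other 17: its summed level of 19 pericentral hepatocyte genes was 2529, against 9857 to 19538 in the other Old and 16199 to 23038 in the Young livers. Most of that sum was 1 gene, Cyp2e1, at 1515 in this liver and 7331 to 18627 in the others. Counted gene by gene, 16 of the 19 were lowest in it, and the share of all genes that were lowest in it was not counted. Values without Old replicate 14 stand beside many of the results. No marker gene that the table held was at 0 in any library, in any of the 18 lists of other endothelial, immune, stellate, bile duct, smooth muscle, hepatocyte and Wnt pathway genes. Levels there went down to 0.0063 scaled TPM, and some listed genes were not in the table. A value above 0 therefore does not by itself show expression.

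The upstream sequences of the ligand genes Wnt2 and Wnt9b and of Kdr and Stab2 are shown because these were the ligands with the lowest levels in Old livers and the pair of endothelial genes that varied most closely together between mice. Each runs over the 250 bases before the RefSeq start (build GRCm38.p6), all on the minus strand. They are Wnt2 at chr6:18030446-18030695, Wnt9b at chr11:103749822-103750071, Kdr at chr5:75978456-75978705 and Stab2 at chr10:87007943-87008192. Capitals mark any match, on either strand, to the core letters of an ETS, GATA, TCF or TATA motif, whose letters are spelled out after the sequences. Matches may overlap each other.
Wnt2: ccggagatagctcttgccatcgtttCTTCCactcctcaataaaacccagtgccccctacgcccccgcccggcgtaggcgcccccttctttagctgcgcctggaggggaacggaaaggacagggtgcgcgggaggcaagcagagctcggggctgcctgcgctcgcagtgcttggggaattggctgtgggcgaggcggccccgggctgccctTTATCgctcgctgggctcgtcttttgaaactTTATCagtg
Wnt9b: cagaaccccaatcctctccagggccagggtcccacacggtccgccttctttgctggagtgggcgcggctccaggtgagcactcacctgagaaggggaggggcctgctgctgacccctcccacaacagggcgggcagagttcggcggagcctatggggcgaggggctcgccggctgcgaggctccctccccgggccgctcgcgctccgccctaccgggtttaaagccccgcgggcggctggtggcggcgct
Kdr: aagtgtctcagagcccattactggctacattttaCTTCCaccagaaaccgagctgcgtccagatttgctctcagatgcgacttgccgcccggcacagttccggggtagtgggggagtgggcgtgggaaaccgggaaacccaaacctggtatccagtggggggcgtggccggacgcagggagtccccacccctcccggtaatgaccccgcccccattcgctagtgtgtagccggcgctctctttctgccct
Stab2: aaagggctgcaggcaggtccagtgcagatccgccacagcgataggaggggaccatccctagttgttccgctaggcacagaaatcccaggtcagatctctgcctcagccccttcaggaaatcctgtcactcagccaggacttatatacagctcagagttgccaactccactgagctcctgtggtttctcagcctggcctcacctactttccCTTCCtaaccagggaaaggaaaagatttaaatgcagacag

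A promoter was matched for 7 of the 10 genes: Stab1, Stab2, Clec4g, Fcgr2b, Kdr, Wnt2 and Wnt9b. Of these, 6 held GGAAG, against 63.6% of 27025 RefSeq mouse promoter windows of the same length, and Wnt9b was the one without it. Wnt2 was the only one of the 7 with GATAA, which it held 2 times, while 23.0% of all windows held it. No window of the 7 held CTTTGA, found in 14.0% of all windows, and Clec4g alone held TATAAA, found in 13.0%. These matches describe the letters of the windows and show no binding.

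Among the 10 genes, per-length levels ran from the Fc receptor gene Fcgr2b down to Wnt9b. Over all 18 livers Fcgr2b averaged 61.6 scaled TPM and was above every other member in every library. Clec4g (28.9) and Kdr (28.3) did not separate, with Clec4g the higher in 10 of 18 livers. Kdr was above Stab2 (23.2) in 16 of 18, and Stab2 was above Stab1 (16.9) in 18 of 18. Stab1 and Pecam1 (15.6) did not separate either, with Stab1 the higher in 12 of 18. Lyve1 (8.97), Rspo3 (4.80), Wnt2 (2.95) and Wnt9b (0.268) followed in that order, each below its predecessor in 18 of 18 livers. The ligand genes were therefore the 3 lowest in these livers, and Wnt9b rested on only 36 to 205 reads per library.

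**Figure D1:**
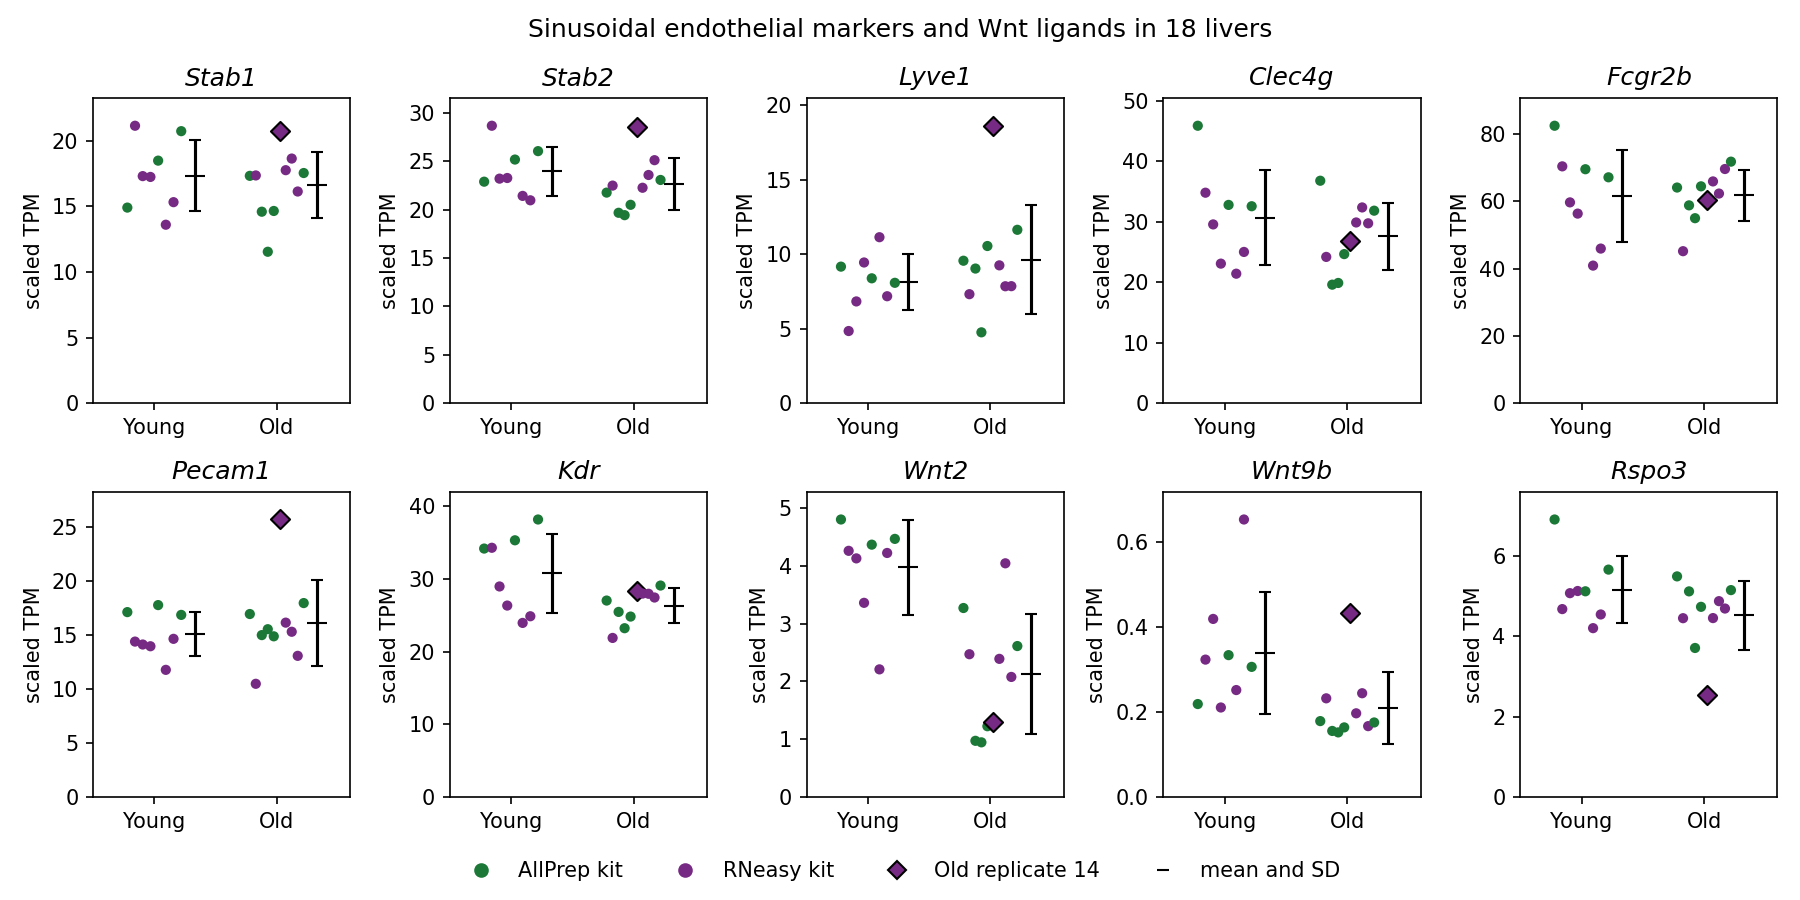
Level of each of the 10 genes (vertical axes, scaled TPM, from 0) in the 8 Young and 10 Old livers, with 1 point per liver coloured by RNA kit, a diamond for Old replicate 14 and a bar for the mean and SD of each group. Wnt2 sits at 2.21 to 4.81 in Young and 0.946 to 4.05 in Old livers, while the receptor genes occupy overlapping ranges at both ages.

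Of the 9 members tested across all genes, 1 passed the test for age, the ligand gene Wnt2, which fell. Over all genes, 612 of 13865 were called for age at an adjusted p under 0.05 (limma with Benjamini-Hochberg adjustment), which is 4.41%, with 2.06% higher and 2.35% lower in Old livers. Without composition scaling the calls split into 341 higher and 188 lower, against 286 and 326 with it, and the median of all genes moved by 0.07 on the log2 scale. Wnt9b did not reach the level needed for that test and was tested on recovered reads.

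No scavenger receptor gene passed the test for age. Stabilin-2, encoded by Stab2, is the main hyaluronan-clearing receptor of these cells. Stab2 had a lowest, median and highest level of 21.0, 23.3 and 28.7 scaled TPM in Young and 19.4, 22.4 and 28.6 in Old livers. Means were 24.0 ± 2.56 (SD, n = 8) and 22.7 ± 2.72 (SD, n = 10), and the ranges overlapped almost fully. The log2 difference was -0.07 (95% confidence interval -0.23 to 0.09, adjusted p = 0.60 by limma). Within AllPrep livers it was -0.24 (-0.45 to -0.02, adjusted p = 0.22) and within RNeasy livers 0.055 (adjusted p = 0.88), by limma. Stab1, which encodes stabilin-1, a related receptor, ranged from 13.6 to 21.1 (median 17.3) in Young and from 11.5 to 20.7 (median 17.3) in Old livers. Its log2 difference was -0.05 (-0.26 to 0.17, adjusted p = 0.83 by limma). The ratio of Stab1 to Stab2 was 72.1% ± 5.27 in Young and 73.3% ± 6.81 in Old livers. The intervals of Stab1 and Stab2 over all livers span 0, and the sign of both turned without composition scaling (0.03 and 0.0030).

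Fcgr2b encodes the inhibitory IgG Fc receptor, which in sinusoidal endothelium takes up small immune complexes. It ranged from 40.9 to 82.4 scaled TPM (median 63.4) in Young and from 45.1 to 71.7 (median 63.2) in Old livers, so that the Old range lay inside the Young one. Its log2 difference was -0.00084 (95% confidence interval -0.24 to 0.23, adjusted p = 1.0 by limma), and its sign turned to 0.07 without composition scaling. Clec4g, which encodes the C-type lectin LSECtin, ranged from 21.4 to 45.8 (median 31.0) in Young and from 19.6 to 36.8 (median 28.2) in Old livers, with 7 of 10 Old livers below the Young median. Its log2 difference was -0.15 (-0.46 to 0.15, adjusted p = 0.56 by limma). Lyve1 encodes a hyaluronan receptor that also marks lymphatic vessels. It ranged from 4.84 to 11.1 (median 8.23) in Young and from 4.76 to 18.6 (median 9.14) in Old livers, and the highest value was Old replicate 14. Its log2 difference was 0.19 (-0.22 to 0.60, adjusted p = 0.58 by limma), and without Old replicate 14 the Old livers averaged 8.65 ± 2.00 (SD, n = 9) against 8.13 ± 1.90 (SD, n = 8) in Young.

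Pecam1 encodes the junctional adhesion molecule CD31. It ranged from 11.7 to 17.7 scaled TPM (median 14.5) in Young and from 10.5 to 25.7 (median 15.4) in Old livers. The value of 25.7 was again Old replicate 14, and the next Old liver was at 17.9. The log2 difference of Pecam1 was 0.05 (95% confidence interval -0.20 to 0.30, adjusted p = 0.84 by limma) and -0.06 without that library. Kdr encodes VEGF receptor 2, the main signalling receptor for VEGF-A. It ranged from 24.0 to 38.2 (median 31.6) in Young and from 21.9 to 29.1 (median 27.3) in Old livers, and 10 of 10 Old livers lay below the Young median. Its log2 difference was -0.22 (-0.41 to -0.04), and the unadjusted limma p of 0.020 came to 0.14 after adjustment over all genes, so Kdr did not pass.

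The estimated Kdr difference was larger in AllPrep than in RNeasy livers, but the difference between kits did not pass its test after adjustment. Among AllPrep livers, Kdr was at 34.2, 35.3 and 38.2 scaled TPM in the 3 Young and at 23.2 to 29.1 in the 5 Old mice, with no overlap. Among RNeasy livers the 5 Young mice ranged from 24.0 to 34.3 and the 5 Old mice from 21.9 to 28.3. The log2 differences were -0.46 (adjusted p = 0.062) within AllPrep and -0.04 (adjusted p = 0.92) within RNeasy, by limma. The test of that difference between kits gave -0.42 (95% confidence interval -0.74 to -0.10), with an unadjusted p of 0.013 and an adjusted p of 0.99. Kdr, Wnt2 and Wnt9b were the members whose AllPrep groups did not overlap, all lower in Old. With 3 against 5 livers, 7.28% of all tested genes were in that position.

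Wnt2, a ligand of canonical Wnt signalling, was lower in Old livers. Its level was 2.21, 4.25 and 4.81 scaled TPM as the lowest, median and highest of the Young livers and 0.946, 2.24 and 4.05 in the Old ones. The groups overlapped, but 10 of 10 Old livers were below the Young median and 5 were below the lowest Young liver. The lowest Old livers were the AllPrep replicates 8, 7 and 9 at 0.946, 0.972 and 1.22, and the RNeasy replicate 14 at 1.30. Means were 3.98 ± 0.824 (SD, n = 8) in Young and 2.13 ± 1.04 (SD, n = 10) in Old livers, a ratio of 0.536. The log2 difference was -0.83 (95% confidence interval -1.29 to -0.37, adjusted p = 0.038 by limma). On recovered reads, 229 to 524 in Young and 89 to 393 in Old livers, limma-voom gave -1.01 (adjusted p = 0.032). It was -0.76 (adjusted p = 0.047 by limma) without Old replicate 14.

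The call on Wnt2 lay close to the threshold. Leaving out 1 library at a time moved its adjusted p to between 0.016 and 0.085 (limma), while the log2 difference stayed between -0.95 and -0.76. The adjusted p was 0.052 to 0.085 without any of Young replicates 1, 2, 3, 4, 10, 12 and 13 or Old replicates 7, 8, 9 and 15. Within AllPrep the log2 difference was -1.25 (adjusted p = 0.098), with means of 4.55 ± 0.228 (SD, n = 3) and 1.81 ± 1.07 (SD, n = 5). Within RNeasy it was -0.52 (adjusted p = 0.58), with means of 3.64 ± 0.880 and 2.46 ± 1.00 (SD, n = 5 each), and -0.35 there without Old replicate 14. The kit by age term for Wnt2 was -0.73 (-1.61 to 0.15, adjusted p = 0.99). Body weight at the clamp was 26.6 to 34.8 in Young and 35.1 to 55.0 in Old mice in the labels' unit, so the groups did not overlap in weight, and with weight as a term the difference was -0.37 (adjusted p = 0.68). Age and weight cannot be told apart in these mice.

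Set against the endothelial genes of the same liver, Wnt2 was lower too. The level of Wnt2 was 13.0% ± 2.25 of that of Kdr in Young livers and 8.04% ± 3.73 in Old livers, with 7 of 10 Old livers below the lowest Young one. It was 26.3% ± 3.67 of Pecam1 in Young and 14.1% ± 7.56 in Old livers. Against Rspo3, the Wnt2 level was 77.3% ± 13.8 in Young and 46.9% ± 19.2 in Old livers. By contrast, the Rspo3 level was 17.0% ± 2.41 of Kdr in Young and 17.3% ± 3.39 in Old livers. These ratios are descriptions of the same values and were not tested.

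Wnt9b, the second Wnt ligand of central vein endothelium, was at 0.211, 0.315 and 0.654 scaled TPM as the lowest, median and highest of the Young livers and at 0.152, 0.177 and 0.434 in the Old ones. Both highest values stood far from the rest of their group, at Young replicate 12 and Old replicate 14. Of the Old livers, 9 of 10 lay below the Young median and 7 below the lowest Young liver. With 36 to 150 reads in Old and 56 to 205 in Young livers, limma-voom gave a log2 difference of -0.59 (95% confidence interval -1.08 to -0.11, adjusted p = 0.14), and 4.03% of 18278 genes were called, 2.23% lower. Without Old replicate 14 the difference was -0.75 (-1.20 to -0.31, adjusted p = 0.042), a fit in which 6.07% of genes were called (3.09% lower) and in which Wnt2 was called too (-0.92, adjusted p = 0.040). The other 9 Old livers ranged only from 0.152 to 0.244.

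Rspo3 encodes R-spondin 3, which amplifies Wnt signalling by removing the ubiquitin ligases ZNRF3 and RNF43 from the cell surface. It was at 4.20, 5.09 and 6.91 scaled TPM as the lowest, median and highest of the Young livers and at 2.53, 4.71 and 5.49 in the Old ones. Old replicate 14 was the lowest of all 18 livers, and the next Old liver was at 3.71. The log2 difference was -0.21 (95% confidence interval -0.44 to 0.01, adjusted p = 0.23 by limma) and -0.13 (adjusted p = 0.31) without that library. Rspo3 therefore did not pass the test.

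**Figure D2:**
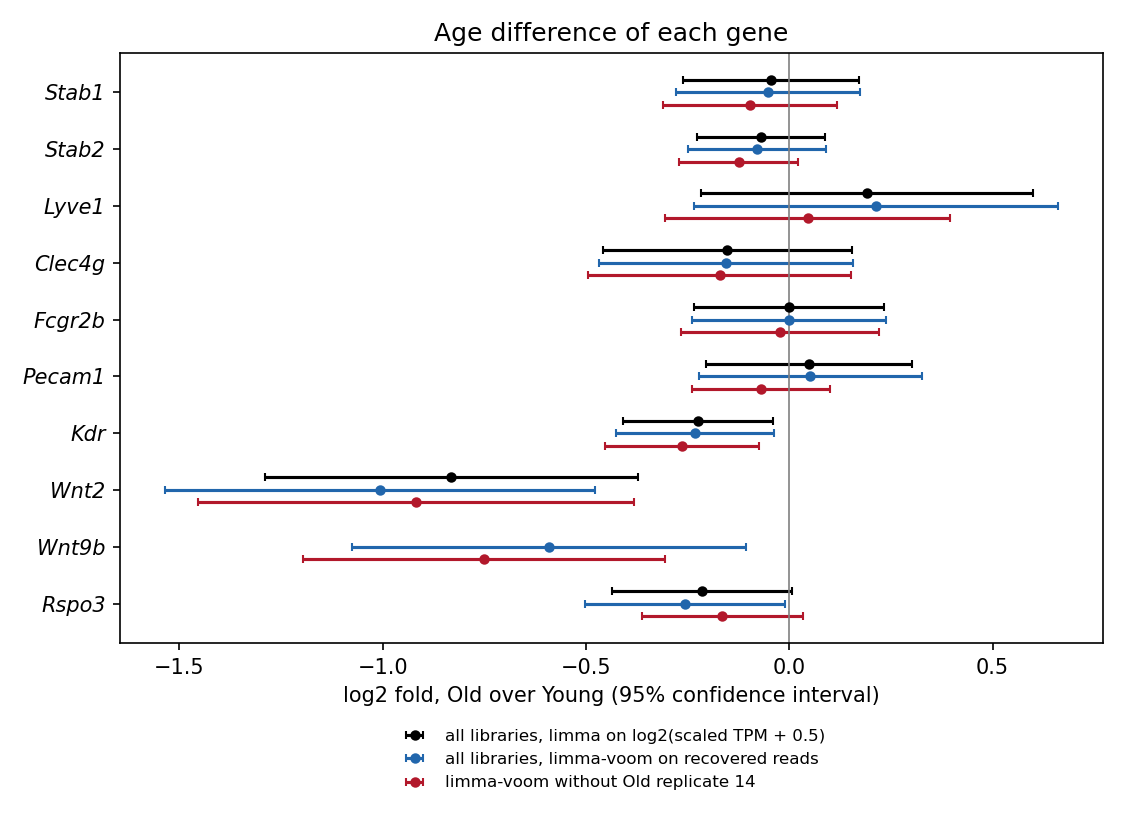
Log2 difference between Old and Young livers (horizontal axis) for each gene, as points with 95% confidence intervals from limma on log2(scaled TPM + 0.5) in all libraries, limma-voom on recovered reads in all libraries, and limma-voom without Old replicate 14. The Wnt2 intervals lie below 0 in all 3 fits, the Wnt9b interval moves from -1.08 to -0.11 to -1.20 to -0.31 without that library, and the 5 receptor genes have intervals that span 0.

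The kit itself moved 22.3% of the tested genes but none of the 9 members at an adjusted p under 0.05 by limma. The nearest was Rspo3, higher in AllPrep livers by 0.24 on the log2 scale (unadjusted p = 0.036, adjusted p = 0.11). Without Old replicate 14, 28.1% of genes were called for kit, among them Pecam1, at 0.27 (adjusted p = 0.014). For the difference between kits in the age effect, 0.00721% of genes (1 of 13865) were called, and no member was. At unadjusted p under 0.05 there were 594 genes, Kdr and Clec4g (p = 0.035) among them. The suppression of glucose production by insulin, recorded for each mouse, was 68.4 to 92.0% in Young and 25.4 to 68.4% in Old mice. Within ages, 0 of 13865 genes had a slope on it that passed at an adjusted p under 0.05 by limma, with 1248 at an unadjusted p under 0.05. Pecam1 (0.011 per percentage point, unadjusted p = 0.027) and Clec4g (0.012, unadjusted p = 0.045) were among those 1248, with an adjusted p of 0.55 each.

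Other genes of the sinusoidal endothelium gave a like picture to the receptor genes. Of 14 further sinusoidal genes, all tested, 0 were called higher and 0 lower, with a median log2 difference of -0.11 against -0.01 over all genes. The genes with the smallest p in that list were the orphan receptor gene Gpr182 (0.22, adjusted p = 0.24), Tspan7 (-0.23, adjusted p = 0.19) and the iron-regulating ligand gene Bmp2 (-0.30, adjusted p = 0.21). The summed level of the list ran from 200.4 to 341 in Young and from 212 to 332 in Old livers. Among 19 tested general endothelial genes, 1 was called, the ETS factor gene Fli1, which rose by 0.31 on the log2 scale (adjusted p = 0.046 by limma). Fli1 averaged 2.74 ± 0.330 in Young and 3.58 ± 0.613 in Old livers, 10 of 10 of them above the Young median, but its adjusted p was 0.063 by limma-voom and up to 0.093 without single libraries. It kept its call only without Young replicate 3 or without Old replicates 6, 14, 16, 17 and 18, each left out alone.

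Endothelial genes known from either end of the sinusoid were listed separately. On the central vein side, 4 of 6 genes reached the level for limma, and 1 rose and 1 fell. Of the other 2, the T-cadherin gene Cdh13, named after its values were seen, fell by 0.67 on the log2 scale by limma-voom (adjusted p = 0.027), from 0.632 ± 0.123 to 0.394 ± 0.0863 scaled TPM, with 10 of 10 Old livers below the Young median. Kit, the stem cell factor receptor gene that marks pericentral endothelium, was at 2.48 to 4.89 scaled TPM in Young and at 1.43 to 3.78 in Old livers. Its means were 4.11 ± 0.945 and 2.45 ± 0.757, with 10 of 10 Old livers below the Young median, and its log2 difference was -0.64 (adjusted p = 0.035 by limma). Dkk3, which encodes a secreted Dickkopf family protein, rose by 0.28 (adjusted p = 0.044 by limma), from 1.92 ± 0.212 to 2.49 ± 0.384. As for Wnt2, these calls were near the threshold: the adjusted p reached 0.083 for Kit and 0.084 for Dkk3 when single libraries were left out. Kit kept its call without Young replicates 4 or 11 or Old replicates 5, 6, 14, 16, 17 or 18, and Dkk3 without Young replicate 12 or Old replicates 8, 14 or 17. Within AllPrep and RNeasy livers the differences were -0.98 and -0.39 for Kit and 0.35 and 0.23 for Dkk3, none of them called. Thbd, the thrombomodulin gene, gave -0.22 (adjusted p = 0.32) and, without Old replicate 14, -0.32 (adjusted p = 0.044).

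On the portal side, 0 of 7 tested genes were called, though 7 of 7 had a positive difference, with a median of 0.31 against -0.01 over all genes. That lean was not particular to this list. Positive differences were found for 6 of 6 tested B cell markers (median 0.39) and 8 of 11 stellate cell markers (median 0.15). They were found for 3 of 9 hepatocyte markers (median -0.06) and 5 of the 14 further sinusoidal genes. The Notch ligand gene Dll4 was at 1.81 to 3.17 scaled TPM in Young and at 2.74 to 6.41 in Old livers. Dll4 gave 0.44 (adjusted p = 0.061 by limma), and 0.035 as its adjusted p without Old replicate 14, which held the highest value. Efnb2, the gene of the arterial marker ephrin-B2, gave 0.34 (adjusted p = 0.060), and the netrin gene Ntn4 gave 0.42 (adjusted p = 0.12). Without Old replicate 14 they gave 0.28 and 0.29, neither called. In the list of continuous or activated endothelium, 0 of 10 tested genes were called, with 8 positive and 2 negative differences and a median of 0.12. There the leukocyte adhesion gene Vcam1 had the smallest p, at 0.64 (adjusted p = 0.066), with 10 of 10 Old livers above the Young median, next to Icam1 (0.33, adjusted p = 0.25) and the caveolin gene Cav2 (-0.26, adjusted p = 0.23). Among 11 tested genes of the VEGF and angiopoietin system, 0 were called. Angpt2, which encodes angiopoietin-2, gave 0.44 (adjusted p = 0.075), the coreceptor gene Nrp2 gave 0.26 (adjusted p = 0.27) and Vegfd gave -0.17 (adjusted p = 0.28).

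Wnt2, Wnt9b and Rspo3 were set beside the other genes of the pathway. Of 20 other Wnt and R-spondin genes listed, 6 were in the table and 4 reached the level for limma, with 0 called. Of the other 2, tested by limma-voom on recovered reads, the ligand gene Wnt9a, named after its values were seen, fell by 1.00 on the log2 scale (adjusted p = 0.032), from 0.629 ± 0.151 to 0.339 ± 0.120 scaled TPM, with 10 of 10 Old livers below the Young median. Wnt5b, a ligand of non-canonical signalling, was the highest of these at 4.57 scaled TPM in Young and 3.58 in Old livers (log2 difference -0.35, adjusted p = 0.21 by limma). Of 14 tested genes for Wnt secretion, receptors and coreceptors, 1 fell. That gene was Fzd6, which encodes a Frizzled receptor. It was at 4.20 to 5.79 scaled TPM in Young and at 1.93 to 3.94 in Old livers, with no overlap, a pattern that 0.224% of tested genes had in this direction. Fzd6 fell by 0.80 on the log2 scale (95% confidence interval -1.01 to -0.60, adjusted p = 0.00074 by limma), to 2.64 ± 0.551 from 4.92 ± 0.584, and passed without each single library. Within kits Fzd6 gave -0.79 (adjusted p = 0.073, AllPrep) and -0.81 (adjusted p = 0.031, RNeasy), and -0.79 (adjusted p = 0.095) with clamp weight as a term. The differences of Fzd8 (-0.40, adjusted p = 0.14) and Ryk (-0.20, adjusted p = 0.20) did not pass.

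Of 8 tested brakes on Wnt signalling, 1 fell: Notum, which encodes a secreted enzyme that inactivates Wnt ligands and is itself a pericentral Wnt target. It was at 12.9 to 19.0 scaled TPM in Young and at 6.95 to 17.1 in Old livers, with 10 of 10 Old livers below the Young median. Its log2 difference was -0.50 (adjusted p = 0.043 by limma; 0.031 without Old replicate 14, which was the lowest; up to 0.085 without other single libraries). Notum kept its call only without Young replicate 11 or without Old replicates 5, 6, 14, 16 or 18, and gave -0.50 within AllPrep and -0.49 within RNeasy, neither called. The feedback inhibitor gene Axin2 gave -0.53 (adjusted p = 0.12; -0.35 and 0.082 without Old replicate 14) and the ubiquitin ligase gene Znrf3 -0.27 (adjusted p = 0.14). Of 19 pericentral hepatocyte targets, all tested, 0 were called higher and 1 lower, again Notum. In all, 16 of the 19 differences were negative, with a median of -0.32 against -0.01 over all genes. The cytochrome gene Cyp1a2 gave -0.80 (adjusted p = 0.073; -0.59 and 0.052 without Old replicate 14) and the transcription factor gene Sp5 gave -0.52 (adjusted p = 0.087). Without Old replicate 14, 3 of the 19 were called lower, against 3.32% of genes lower in that fit. They were Notum, Sp5 (adjusted p = 0.041) and Oat, the ornithine aminotransferase gene, named after its values were seen (-0.67, adjusted p = 0.023; -1.03, adjusted p = 0.10 with all livers).

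**Figure D3:**
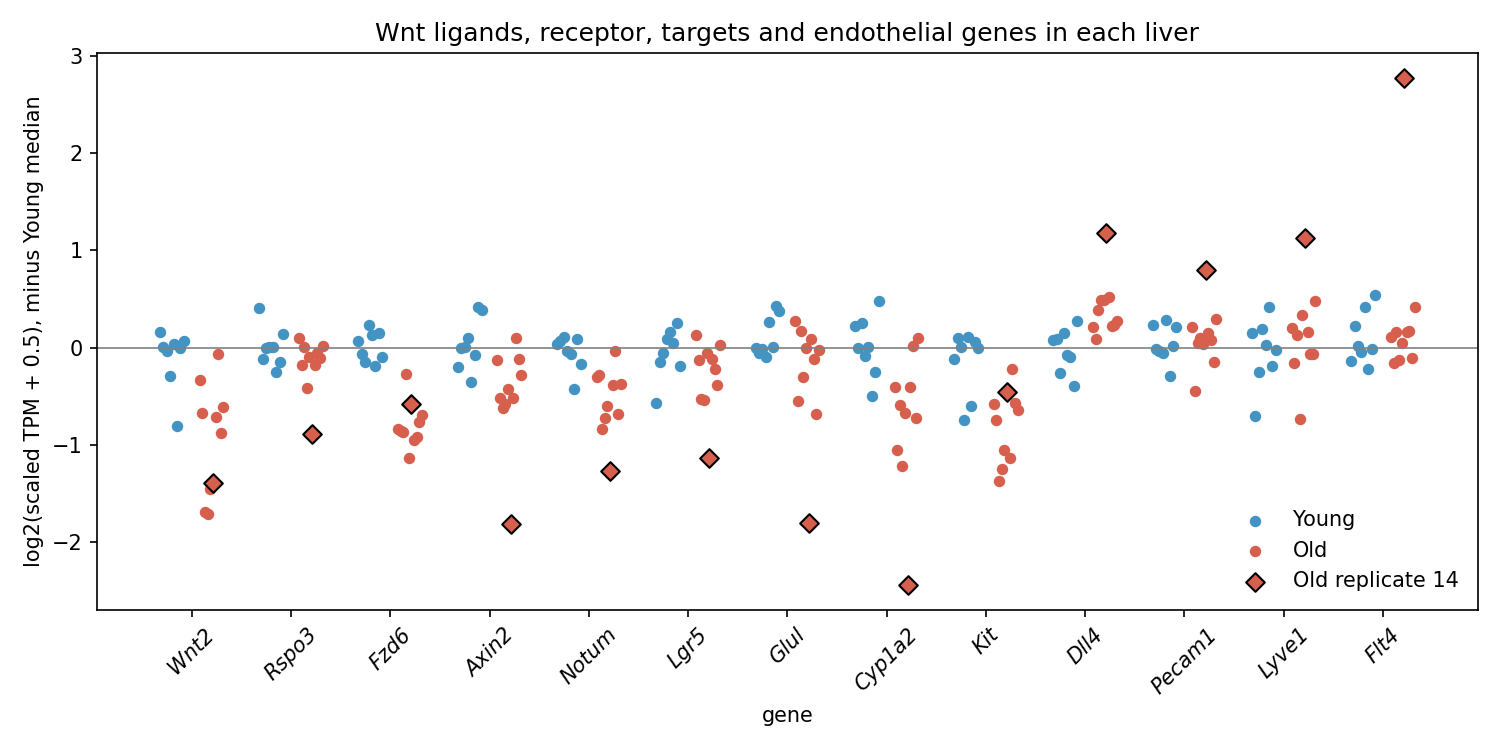
Levels in each liver on the log2(scaled TPM + 0.5) scale, minus the Young median (vertical axis), for 2 Wnt pathway ligands, the receptor gene Fzd6, Wnt targets and endothelial genes (horizontal axis), with Young and Old livers side by side and a diamond for Old replicate 14. All Fzd6 points of Old livers lie below those of Young livers, and the diamond is the lowest point for Rspo3, Axin2, Notum, Lgr5, Glul and Cyp1a2 and the highest for Dll4, Pecam1, Lyve1 and Flt4.

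Old replicate 14 combined high endothelial levels with low pericentral ones. Its level of Flt4, which encodes VEGF receptor 3, was 94.6 scaled TPM against 11.5 to 19.7 in the other 17 livers. It was also above all others for Pecam1 (25.7 against at most 17.9), Lyve1 (18.6 against at most 11.6) and Dll4 (6.41 against at most 3.88). It had the highest value for 12 of 20 general endothelial genes, 7 of 13 genes of continuous or activated endothelium and 5 of 7 portal side genes. The count was 2 of 6 for central vein side genes and 1 of 14 for the further sinusoidal genes. The lowest value was in this liver for 8 of 16 genes of Wnt secretion, receptors and coreceptors and for 6 of 11 Wnt brakes, lists that share genes with the pericentral one. How many of all genes had their highest or lowest value in this liver was not counted, so these counts have no background. Cd34 was at 3.60 against 0.324 to 1.25, and Sele, the E-selectin gene, at 0.715 against 0.0339 to 0.222. Stab2 (28.6) and Kdr (28.3) stayed inside the range of the other livers. At the same time 16 of 19 pericentral genes were lowest there, with Glul at 246 against 533 to 1155 and Cyp2e1 at 1515 against 7331 to 18627. Its Wnt2 (1.30) was within the range of the others and its Rspo3 (2.53) was below it.

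Markers of other cells were read beside these results. Of 14 Kupffer cell and macrophage markers, 1 was called, Cd163, a macrophage scavenger receptor gene that fell by 1.74 on the log2 scale (adjusted p = 0.026 by limma), from 14.7 ± 4.10 to 5.26 ± 4.60. It lost the call without Young replicates 1, 10 or 13 (adjusted p up to 0.067). Cd163 ran against most of its list, in which 10 differences were positive and 4 negative. The median of the list was 0.22 on the log2 scale against -0.01 over all genes. The summed level of the macrophage list was 429 to 979 in Young and 428 to 1413 in Old livers, and 10 of its 14 genes were higher in AllPrep livers. B cell markers summed to 5.53 to 9.17 in Young and 6.47 to 25.3 in Old livers, and 0 of 6 tested were called. None was called among 7 T and NK cell, 11 stellate cell, 5 lymphatic, 4 bile duct, 1 smooth muscle and 9 hepatocyte markers tested. Their sums in Young and Old livers were 4.44 to 12.3 and 5.78 to 21.2 for T and NK cells, 205 to 366 and 242 to 409 for stellate cells, and 93.2 to 156 and 113 to 172 for the lymphatic list. They were 26.6 to 68.2 and 24.2 to 81.4 for bile duct, 0.607 to 1.49 and 0.425 to 3.53 for smooth muscle, and 87826 to 132501 and 95676 to 140295 for hepatocytes. The lymphatic sum was mostly Prox1 (mean 74.3 in Young livers) and Reln (31.4), which is also in the stellate list. It is therefore not a level of lymphatic endothelium, and its highest Old value was replicate 14. What part the cells of these lists have in the endothelial and Wnt values was not tested.

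After age and kit were taken out, several of the 10 genes varied together between mice. Over 45 pairs in 18 livers, 13 correlations passed a permutation test of Pearson's r with Benjamini-Hochberg adjustment, and all 13 were positive. The share of pairs of other genes that pass this test was not counted. The counts of called pairs therefore have no background and do not show a likeness particular to these genes. Stab2 and Kdr gave r = 0.85 (Spearman's rho 0.86, permutation p = 3e-05, adjusted p = 0.00036), with 0.95 within AllPrep and 0.80 within RNeasy livers, and 0.85 without the 2 livers farthest from the median. Fcgr2b and Kdr gave r = 0.85 (rho 0.80, permutation p = 3e-05, adjusted p = 0.00036; 0.69 within AllPrep, 0.92 within RNeasy, 0.80 without the 2 farthest). Stab1 and Stab2 gave r = 0.84 (rho 0.85, permutation p = 1e-05, adjusted p = 0.00036; 0.89, 0.84 and 0.83 in the same order). A p of 1e-05 is the smallest that these permutations can give. The core of Stab1, Stab2, Kdr, Fcgr2b and Clec4g accounted for most of the called pairs.

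Wnt2 varied with Clec4g and with Rspo3. For Clec4g and Wnt2, r was 0.82 (rho 0.79, permutation p = 4e-05, adjusted p = 0.00036), 0.92 within AllPrep, 0.67 within RNeasy and 0.73 without the 2 farthest livers. For Wnt2 and Rspo3, r was 0.63 (rho 0.63, permutation p = 0.0041, adjusted p = 0.021), 0.58 within AllPrep, 0.70 within RNeasy and 0.52 without the 2 farthest. Wnt9b and Lyve1 were in no called pair. All Wnt9b levels except that of Young replicate 12 lay below the 0.5 added before logs, which flattens their variation. On recovered reads, r of Wnt9b with Pecam1 was 0.60 against 0.53 and with Stab1 0.41 against 0.25. There 17 of the 45 pairs were called by the permutation test. Lyve1 and Pecam1 gave r = 0.53 (rho 0.33, permutation p = 0.033, adjusted p = 0.081), which was 0.13 without Old replicate 14, so it rested on that library. Stab2 and Pecam1 (r = 0.59, rho 0.53, permutation p = 0.0077, adjusted p = 0.032) came to 0.36 without it. Without that library 16 of the 45 pairs were called, within Young livers 5 and within Old livers 2.

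**Figure D4:**
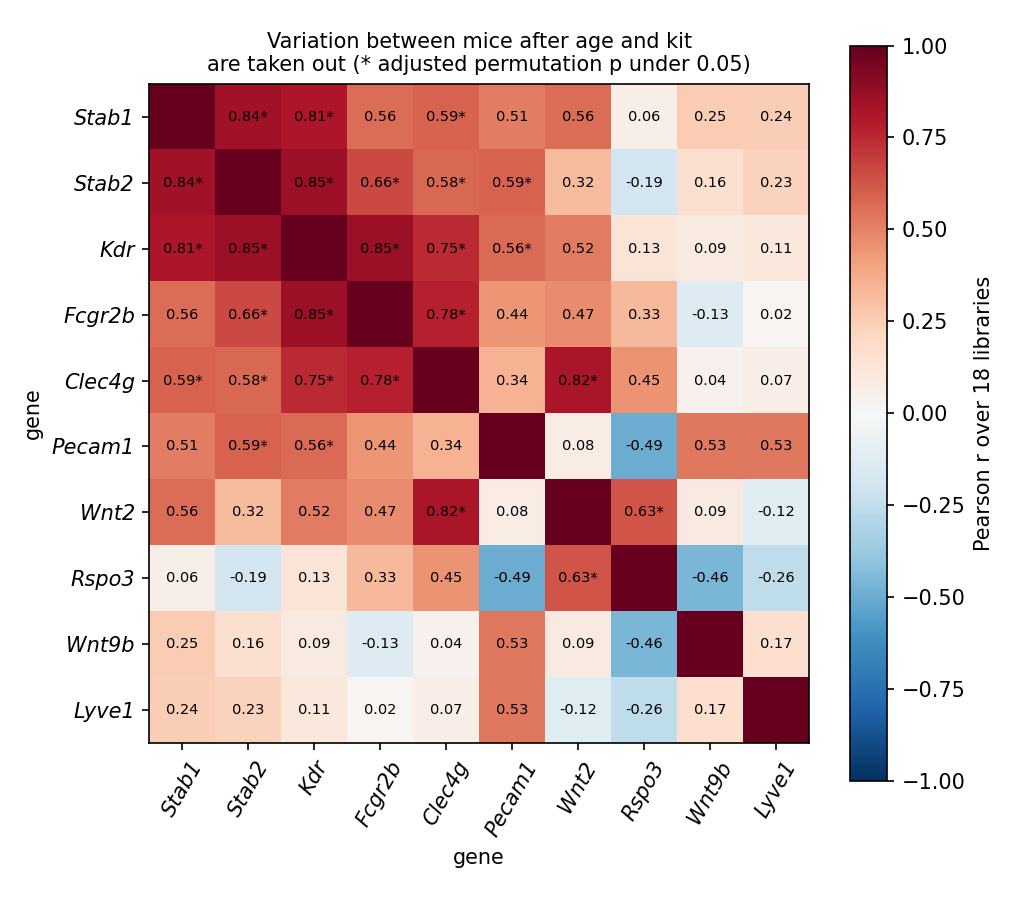
Pearson's r between each pair of the 10 genes over 18 livers after age and kit were taken out of log2(scaled TPM + 0.5), as colours and numbers, with both axes listing the genes and an asterisk where the adjusted permutation p is under 0.05. Stab1, Stab2, Kdr, Fcgr2b and Clec4g form the block of high values (Stab2 with Kdr 0.85), and the rows of Wnt9b and Lyve1 carry no asterisk.

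Across the rest of the table, the genes whose levels ran most like those of a member were ranked by Pearson's r over the same 18 livers with age and kit taken out, as a description. Nearest to Stab2 among 8238 genes were Rasgrp3 (0.84), Ptprb (0.77), Foxk2 (0.77), Ptk2 (0.75) and Fam104a (0.74). Without Old replicate 14, Ptprb and Rasgrp3 held ranks 1 and 2. Foxk2, Ptk2 and Fam104a then fell to ranks 14, 22 and 17, with r of 0.70, 0.65 and 0.67. Nearest to Kdr were Dnase1l3 (0.86), Npr1 (0.85), Tek (0.84), Adgrf5 (0.84) and Ptprb (0.82). Among 12230 genes, those nearest to Wnt2 were Tpbgl (0.91), Ada (0.89) and Mrps14 (0.88), and those nearest to Wnt9b were Nagk (0.82), Vangl1 (0.79) and Tcf7 (0.79). Rspo3 ran with Tdo2 (0.96), Hsd17b11 (0.96) and Phyh (0.95), which were at 0.93, 0.91 and 0.91 without Old replicate 14. The Kdr neighbours thus included Ptprb and Tek, which encode endothelial receptors, and those of Rspo3 were genes at 343 to 2797 scaled TPM.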

How the data were processed

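The authors deposited 1 table of TPM (reads per gene length, scaled to a total of 1000000 per library) for 18946 genes in 18 libraries. Per the submitters' processing notes, tools were STAR 2.7.9a, Subread and featureCounts, and builds GRCm39 and mm10, with no role for either. How genes were annotated and whether strand was used is not given here, so overlapping and antisense genes are uncertain. Values were whole multiples of 1 read for 18946 of 18946 genes (largest distance 2e-08), which gave read numbers and depth. In a simulated table of 18946 genes, 100% were returned.

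Composition scaling used trimmed means of log ratios between libraries (30% of ratios, 5% of levels). Age and kit were terms of limma 3.58.1 (R 4.3.3, variance trend) on log2(scaled TPM + 0.5), for 13865 genes with at least 0.5 in at least 8 libraries, with Benjamini-Hochberg adjustment at 0.05. Differences on this scale understate changes of low genes. Limma-voom on recovered reads used 18278 genes with at least 10 reads in at least 8 libraries. In simulated libraries of 13954 genes for the age comparison, 28.6% of genes changed 1.25-fold, 67.3% changed 1.5-fold, 89.6% changed 2-fold and 97.8% changed 4-fold were called, with 4 false calls among 13762 unchanged genes. The simulated livers had no kit effect, no shared variation between genes, no composition scaling and no library like Old replicate 14. These rates may therefore not hold for the real livers. Other age models used pseudocounts of 0.1 and 1, a filter of 1 TPM or none, other or no scaling, no kit term, clamp weight, library weights, each kit alone and each library left out. Limma-voom within kits and fits combining 2 choices without Old replicate 14 were added after seeing the data. Pairs used 100000 permutations. Reads of any 2 libraries of 1 age differed by a chi-square of at least 40.0 per degree of freedom, so none was counted as a repeat.

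The members and the 18 lists were chosen with earlier results of these data known. Genes named were the 10 members, up to 3 genes with the smallest age p per endothelial, VEGF and Wnt list, and the genes most like 5 members (5 for Stab2 and Kdr with a mean of at least 5, 3 for each ligand with a mean of at least 1). Cd163, Flt4, Cd34, Sele, Oat, Glul, Cyp2e1, Wnt9a, Cdh13, Prox1 and Reln were named after their values were seen, as was the comparison of ligands with targets. Promoters are from RefSeq (GRCm38.p6). One gene of the pericentral list is not reported here by name.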

Additional observations from a re-analysis of the deposited data

Results flagged for a closer look

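Of 20 groups looked at (10 genes at 2 ages), 4 held a library far from its nearest neighbour, measured against the range of its group, and chance gives about 1 in 20. In Old livers, Lyve1 was 18.6 scaled TPM in replicate 14, with a gap of 0.504 of the group's range where 0.466 is the limit for 10 samples. Pecam1 was 25.7 in the same liver (gap 0.509 of the range), and Wnt9b was 0.434 there (gap 0.672). In Young livers, Wnt9b was 0.654 in replicate 12 (gap 0.529 of the range, limit 0.526 for 8 samples). The same Old liver thus held 3 of the 4 values, and Stab1, Stab2, Clec4g, Fcgr2b, Kdr, Wnt2 and Rspo3 had no such library at either age.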

How the results depend on the processing

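No paired analysis was possible because the groups share no replicate number. For age, 286 genes were higher, 326 lower and 1 member called. The counts of higher genes, lower genes and members were 94, 58 and 0 in AllPrep livers alone, 6, 9 and 0 in RNeasy alone, and 34, 26 and 0 there without Old replicate 14. By limma-voom they were 129, 87 and 0 in AllPrep, 12, 15 and 0 in RNeasy, and 545, 565 and 2 without Old replicate 14. Clamp weight as a term gave 3, 0 and 0 (1845 genes at an unadjusted p under 0.05), and library weights gave 663 and 699. No filter without Old replicate 14 gave 512 higher and 0 members, and no composition scaling 188 lower. Fewer livers enter the fits within a kit, and the cause of the other shifts was not tested. Leaving out 1 library gave 140 to 462 higher, 173 to 519 lower and 0 to 1 members. For kit, limma-voom gave 2632 lower genes against 1462, and leaving out Old replicate 14 called 1 member. For kit by age these fits gave 0 (833 at an unadjusted p under 0.05) and 3 lower genes against 1. Pairs called numbered 17 on recovered reads, 5 within Young and 2 within Old livers against 13.

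Signs turned only among uncalled genes. In AllPrep alone Pecam1 gave -0.10 and Flt4 -0.15 (limma-voom -0.12 and -0.17). In RNeasy alone Clec4g gave 0.11, Fcgr2b 0.16, Stab1 0.11 and Stab2 0.055 (limma-voom 0.12, 0.17, 0.12 and 0.061), and there without Old replicate 14 Clec4g gave 0.13, Fcgr2b 0.16, Stab1 0.058, Pecam1 -0.017 and Bmp2 0.039. Clamp weight gave Clec4g 0.33, Fcgr2b 0.14, Stab1 0.027, Stab2 0.081, Cav2 0.13 and Sox7 -0.049. Library weights gave Fcgr2b 0.0091, Flt4 -0.020 and Pecam1 -0.017. Without Old replicate 14, Flt4 gave -0.056 and Pecam1 -0.057 (limma-voom -0.067 and -0.070), also with no filter. No composition scaling gave Fcgr2b 0.073, Stab1 0.027 and Stab2 0.0030, and no kit term gave Fcgr2b 0.027. Leaving out 1 library gave -0.064 to 0.056 for Fcgr2b, -0.096 to 0.015 for Stab1, -0.057 to 0.11 for Pecam1 and -0.056 to 0.36 for Flt4. At its median depth the counting error of Wnt9b was 13.0%, against a spread of 42.4% in Young and 40.3% in Old livers. Without Old replicate 14 the Old spread was 17.9%, near that counting error. The Young spread includes the far value of replicate 12.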

Other observations

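The level of each ligand gene was set against those of the 19 pericentral targets over the 18 livers, with age and kit taken out, 57 pairs in all, a comparison chosen after values had been seen. The share of all genes that pass with each ligand was not counted, so the counts below have no background. Genes outside the list ran closer to Wnt2 (Tpbgl, r = 0.91) and Rspo3 (Tdo2, r = 0.96) than any target. Wnt2 passed with 9 of 19 targets (permutation test of Pearson's r, adjusted over the 57 pairs) and with 8 without Old replicate 14. The highest was Notum, the Wnt-inactivating enzyme gene, with r = 0.79 (rho 0.81, permutation adjusted p = 0.00080), 0.86 within AllPrep, 0.87 within RNeasy, 0.78 without the 2 farthest livers and 0.85 without Old replicate 14. The hepatokine gene Lect2 gave 0.72, while Tnfrsf19, a TNF receptor family gene, ran the other way at -0.64.

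Rspo3 passed with 11 of 19 targets and with 4 without Old replicate 14. Its r with the cytochrome gene Cyp2e1 was 0.88 (rho 0.74) and 0.78 without that library, and that with Cyp27a1, a bile acid synthesis gene, was 0.88 and 0.76. With Axin2 it was 0.72 and then 0.39. Wnt9b passed with 0 of 19 in all livers by this permutation test and with 1, Gulo, a gene of vitamin C synthesis, without that library.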
